A study of Mus musculus with 12 samples.

Results

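The miRNAs miR-10 and miR-196 are transcribed from inside the Hox clusters, and 4 of their mature forms are on the array used here: mmu-miR-10a, mmu-miR-10b, mmu-miR-196a and mmu-miR-196b. These 4 were chosen by name among the 611 mouse miRNAs measured, with one result already in view: miR-196a was known to be undetected in untreated knockout cells and detected in untreated wild-type cells. Knockout minus wild-type differences are therefore given as a description, with no test. The same holds for every miR-196a difference that takes in the untreated knockout arrays. The genotype difference in the miR-10a response to treatment was tested, although it contains such knockout minus wild-type differences.

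The cells were mouse embryonic fibroblasts (MEFs), connective tissue cells grown from embryos, of C57BL/6 background. Knockout cells (KO) lack ATF6b, a transcription factor held in the membrane of the endoplasmic reticulum and cut free when proteins there fail to fold. Wild-type cells (WT) carry it. Both lines were left untreated or were given 2 ug/mL tunicamycin, an inhibitor of N-linked glycosylation that provokes this stress, for 12 h or 24 h. The order of groups used here is KO untreated, KO 12 h, KO 24 h, WT untreated, WT 12 h and WT 24 h, with 2 arrays in each, which the series text ascribes to independent experiments. How the KO allele was made, and whether each line came from 1 embryo or several, is not stated in the labels.

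Hox genes lie in 4 clusters and are switched on in an order that follows their place in the cluster, so that cells from different levels of the body axis carry different Hox programmes. The miRNAs of the clusters are expressed in domains like those of the Hox genes around them. Fibroblasts are known to keep such a positional programme in culture, of which these miRNAs are a part. The comparison of the lines asks whether they carry these miRNAs at like levels. miR-196 pairs so closely with Hoxb8 mRNA that it directs its cleavage in mouse embryos, and miR-10 is also a known repressor of Hox mRNAs. In the RefSeq annotation of GRCm38.p6, Mir10a lies on chromosome 11 within the span of Hoxb3, between Hoxb5 and Hoxb4. Mir10b lies on chromosome 2 within Hoxd3 and Hoxd4. Mature miR-196a comes from 2 genes, Mir196a-1 on chromosome 11 between Hoxb13 and Hoxb9, and Mir196a-2 on chromosome 15 between Hoxc10 and Hoxc9. Mir196b lies on chromosome 6 between Hoxa9 and Hoxa10. An array signal for miR-196a therefore cannot be assigned to 1 of its 2 genes, and no source used here names the genome build behind the array's names.

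The mature sequences, from RefSeq (GRCm38.p6), are shown because the members of each pair are nearly the same molecule. Capitals mark the seed, bases 2 to 8, which selects target mRNAs.
mmu-miR-10a: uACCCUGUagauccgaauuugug
mmu-miR-10b: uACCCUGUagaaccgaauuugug
mmu-miR-196a: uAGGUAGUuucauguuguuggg
mmu-miR-196b: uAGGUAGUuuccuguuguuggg
Counted from the 5′ end, miR-10a and miR-10b share their seed and differ in 1 of 23 bases (U12A, miR-10a first). miR-196a and miR-196b also share a seed and differ in 1 of 22 bases (A12C, miR-196a first). How far the array's probes keep such near-identical miRNAs apart was not tested, so each signal may hold some of its partner's.

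Between 114 and 191 miRNAs were detected per array. The treated arrays share 1 slide and the untreated arrays another, which means that a slide effect cannot be told apart from treatment. On each slide the KO arrays lie in row 2 and the WT arrays in row 1, which means that slide row cannot be told apart from genotype. The array's 75th percentile of intensity, to which levels are scaled, was 246 for KO 12 h, 208 for KO 24 h and 257 for WT 24 h in replicate 2, against 412 to 623 on the other arrays. Of 11 fibroblast miRNAs on the array 9 to 11 were detected on each array, and the 6 blood, 5 neural and 3 endothelial and liver miRNAs were detected on none. Of 4 muscle miRNAs at most 1, and of 8 pluripotent miRNAs at most 2, were detected on an array. Epithelial miRNAs set the 4 treated KO arrays apart: the summed level of 8 such miRNAs was 266% to 384% of the 75th percentile on the KO 12 h arrays and 265% to 321% on the KO 24 h arrays, against at most 1.88% on any of the other 8 arrays. miR-200c, miR-200b and miR-141 were detected on all 4 treated KO arrays and on none of the others, while miR-205, miR-203 and miR-429 were detected on no array. The labels give treated and untreated KO arrays as the same cells. They differ in these markers as well as in treatment, so whether they are 1 culture was not tested, and in every KO difference given here such a gap cannot be told apart from tunicamycin.

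The members differed widely in how well they were measured. miR-10a was detected on 12 of 12 arrays, at a level of 14.1% to 36.2% of the array's 75th percentile (median 28.0%). miR-196a was detected on 9 arrays: all 6 WT arrays, both KO 12 h arrays and replicate 1 of KO 24 h. miR-10b was detected on 2 arrays, replicate 1 of KO 12 h and replicate 1 of KO 24 h, and miR-196b on 0 of 12. The test took in miRNAs that both arrays of some group had detected. By that rule miR-10a and miR-196a were among the 176 miRNAs tested, and miR-10b and miR-196b were not. A level is given below as a percent of the array's 75th percentile over the 93 miRNAs detected on every array. Levels under 1.91%, the floor used before taking log2, have no order. For scale, miR-21, an abundant fibroblast miRNA, lay between 2510% and 3727%, but levels are comparable only between arrays and not between miRNAs with different probes.

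**Figure D1:**
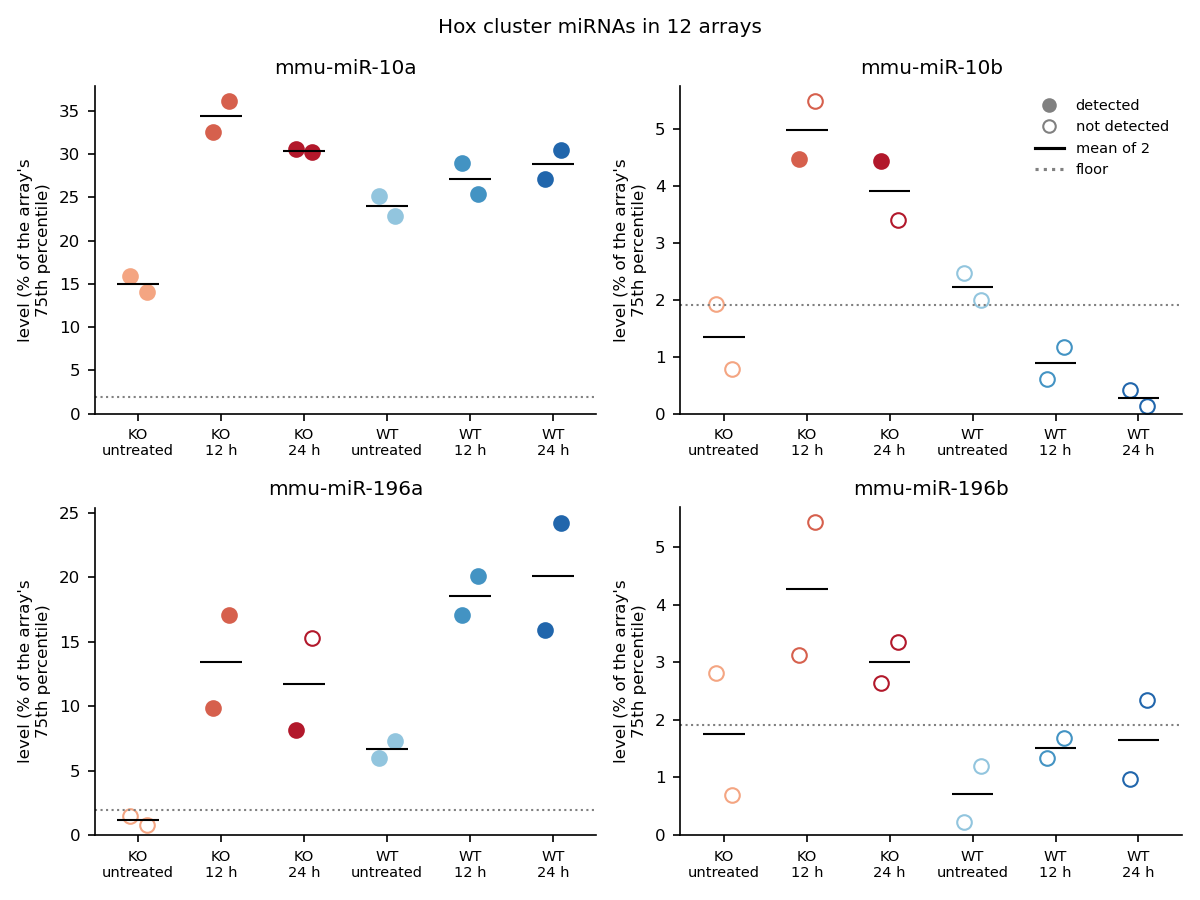
Level of each member on the 12 arrays (y axis, percent of the array's 75th percentile; x axis, the 6 groups with KO on the left). Filled points are arrays on which the miRNA was detected, open points those on which it was not, bars the mean of 2 arrays, and the dotted line the floor of 1.91%. miR-10a is lowest in untreated KO cells (15.9% and 14.1%), where miR-196a lies under the floor.

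In the main setting miR-10a rose with tunicamycin in KO cells and did not pass the test in WT cells. Untreated KO cells had levels of 15.9% and 14.1%, KO cells at 12 h had 32.6% and 36.2%, and KO cells at 24 h had 30.6% and 30.2%. All 4 treated KO arrays lay above both untreated KO arrays, and the 12 h arrays lay above the 24 h arrays. Untreated WT cells had 25.2% and 22.9%, WT cells at 12 h had 28.9% and 25.4%, and WT cells at 24 h had 27.2% and 30.4%. Treated and untreated WT arrays did not overlap, but 25.4% and 25.2% nearly touched. Here and below, a lack of overlap is a description only, since its share over all tested miRNAs was not counted.

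In KO cells miR-10a rose at 12 h by 1.20 ± 0.13 on the log2 scale (SE, 2.29-fold, n = 2 per group, limma adjusted p = 0.000286) and at 24 h by 1.02 ± 0.13 (2.03-fold, adjusted p = 0.000758). Before scaling the gap was far smaller: the mean intensity of miR-10a was 117 in KO cells at 12 h against 91.9 in untreated KO cells (1.27-fold), and at 24 h it was 94.5 against the same 91.9 (1.03-fold). The array's 75th percentile was lower on the treated KO arrays (446 and 246 at 12 h, 412 and 208 at 24 h) than on the untreated KO arrays (623 and 599), so the size of the scaled rise rests on that percentile. Across all tested miRNAs 25.6% were called at 12 h and 30.7% at 24 h in KO cells, and the median miRNA moved by 0.25 and 0.15. In WT cells the difference was 0.17 ± 0.13 at 12 h (adjusted p = 0.307) and 0.26 ± 0.13 at 24 h (adjusted p = 0.153), and neither passed the test. With the brightest probe alone both passed in WT cells (0.44, adjusted p = 0.0246, and 0.39, adjusted p = 0.0344). In the main setting 38.1% of miRNAs were called in WT cells at 12 h and 43.2% at 24 h, and the median miRNA moved by -0.05 and -0.03. The rise in KO cells did not pass with scaling over all miRNAs, with quantile normalization or on the deposited values (0.31 at 12 h and -0.044 at 24 h), and at 24 h it did not pass with the software's total gene signal. The epithelial miRNAs described above moved on the same 4 arrays, and their part in the miR-10a rise was not tested.

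The difference between the 2 responses was tested directly. At 12 h the miR-10a response in KO cells exceeded that in WT cells by 1.02 ± 0.19 (log2, SE; limma adjusted p = 0.00797), where 24.4% of miRNAs were called. At 24 h it exceeded it by 0.76 ± 0.19 (adjusted p = 0.0259), where 20.5% were called, or 60 in place of 36 miRNAs with the scan session as a block. The call at 12 h was lost with scaling over all miRNAs (0.76, adjusted p = 0.915), quantile normalization (0.62, adjusted p = 0.323), normexp (0.69, adjusted p = 0.328), the software's total gene signal (1.08, adjusted p = 0.111) and the deposited values (0.10, adjusted p = 0.992). The call at 24 h was lost under 13 of 24 alternatives. These differences include the gap between the untreated lines, which was given no test: without treatment the KO level was the lower, and with treatment the lines came close together. The members were chosen with a genotype result of these data in view, so the p-values are not an independent test of genotype. The median of all miRNAs was also above 0 in both, at 0.37 for 12 h and 0.44 for 24 h.

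miR-196a was higher with tunicamycin in both genotypes. Untreated KO cells had 1.48% and 0.768%, both under the floor and undetected, KO cells at 12 h had 9.84% and 17.0%, and KO cells at 24 h had 8.11% and 15.3%. Untreated WT cells had 5.98% and 7.31%, WT cells at 12 h had 17.1% and 20.05%, and WT cells at 24 h had 15.9% and 24.2%. In each genotype every treated array lay above every untreated array, and the 12 h and 24 h arrays overlapped. As for miR-10a, this separation is a description only.

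In WT cells miR-196a rose by 1.48 ± 0.37 on the log2 scale at 12 h (SE, 2.80-fold, n = 2 per group, limma adjusted p = 0.0161) and by 1.57 ± 0.37 at 24 h (2.97-fold, adjusted p = 0.0106). Across all tested miRNAs 38.1% were called in WT cells at 12 h and 43.2% at 24 h. On the deposited values the miR-196a difference at 12 h was of the opposite sign, at -1.18. At 24 h the call was lost on the deposited values (0.0087), with the software's total gene signal (0.22), with scaling over all miRNAs (1.54, adjusted p = 0.107) and with normexp (0.44). The untreated WT arrays in this comparison are also part of the known genotype difference. The SE shared over the groups takes in the untreated KO arrays, which have no spread at the floor, so it can be too small. Without replicate 1 of untreated WT the adjusted p was 0.0962 at 12 h and 0.0698 at 24 h. It was also above the threshold without replicate 2 of WT 12 h (0.0796) and without replicate 2 of WT 24 h (0.0757). In KO cells miR-196a was undetected on both untreated arrays, so a fold is given only as a bound, for the main setting alone. The level was at least 5.27-fold higher at 12 h and at least 4.53-fold higher at 24 h. Other settings gave smaller log2 differences, of 0.84 and 0.88 with normexp, 0.99 and 0.81 with the brightest probe and 1.76 and 1.54 with the floor at 2 times its height. In these settings too a floor or an offset sets the untreated KO value. The mean at 24 h includes the array on which miR-196a was not detected. The treated KO arrays are those with epithelial miRNAs, whose part in this was not tested either. The bound sets the treated mean against, on each untreated array, the highest of its lowest detected signal, the floor and the miRNA's own signal. On replicate 2 of KO 24 h the software did not call miR-196a detected, although its level was 15.3%, on an array whose 75th percentile was the lowest of the 12, at 208.

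Between 12 h and 24 h of tunicamycin neither member passed the test in either genotype. For 24 h minus 12 h, miR-10a differed by -0.18 ± 0.13 in KO cells (limma adjusted p = 0.778; -0.09 and -0.26 within the 2 scan sessions) and by 0.09 ± 0.13 in WT cells (adjusted p = 0.94; -0.09 and 0.26). miR-196a differed by -0.22 ± 0.37 in KO cells (adjusted p = 0.892; -0.28 and -0.16) and by 0.09 ± 0.37 in WT cells (adjusted p = 1; -0.10 and 0.27). Few miRNAs were called between these times: 0.568% in KO cells and 1.14% in WT cells, or 1 and 2 miRNAs. With the scan session as a block these became 3 and 4 miRNAs, and neither member passed.

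**Figure D2:**
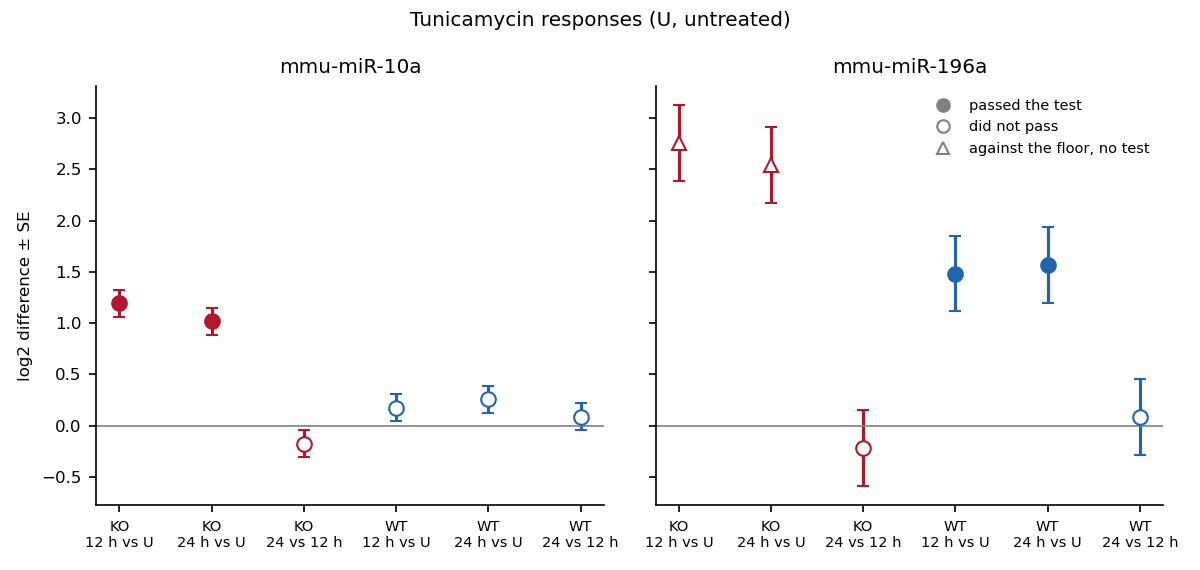
Log2 differences of miR-10a and miR-196a (y axis, with SE from the limma fit) between treatment times (x axis, KO on the left, U for untreated). Filled points passed the test, open circles did not, and triangles rest on untreated KO arrays at the floor and were not tested. miR-10a rose by 1.20 and 1.02 in KO cells and not past the threshold in WT cells, and miR-196a rose by 1.48 and 1.57 in WT cells.

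Without treatment, both measurable members were lower in KO than in WT cells. The miR-10a level was 15.0% ± 1.3 in untreated KO cells and 24.0% ± 1.6 in untreated WT cells (SD, n = 2 each). The difference, -0.68 on the log2 scale, was -0.66 in one scan session and -0.70 in the other. miR-196a was undetected on both untreated KO arrays and detected on both untreated WT arrays, and in the main setting it was at least 2.69-fold lower in KO cells. Other settings gave smaller log2 differences, of -0.79 with the floor at 2 times its height, -0.29 with normexp and -0.18 with the brightest probe. In these settings too a floor or an offset sets the untreated KO value, so they do not measure how large the gap is. Before any floor or scaling the brightest probe, A_54_P2465, averaged 1.13 in untreated KO cells and 10.85 in untreated WT cells. This is the result in view when the members were chosen.

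With tunicamycin, the genotypes lay closer together in the main setting. At 12 h miR-10a averaged 34.4% ± 2.5 in KO cells and 27.2% ± 2.5 in WT cells (SD, n = 2 each), a log2 difference of 0.34 with arrays that did not overlap (0.17 and 0.51 within scan sessions). The direction turned on the deposited values (-0.39), with scaling over all miRNAs (-0.076) and with the brightest probe (-0.016), and before scaling the mean intensity was 117 in KO cells and 150 in WT cells. At 24 h it averaged 30.4% ± 0.29 in KO cells and 28.8% ± 2.3 in WT cells, and the arrays overlapped. In the main setting miR-196a stayed lower in KO cells at both times: 13.4% ± 5.1 in KO cells and 18.6% ± 2.1 in WT cells at 12 h, and 11.7% ± 5.1 in KO cells and 20.1% ± 5.9 in WT cells at 24 h. At 12 h its arrays nearly touched, with 17.0% on the higher KO array and 17.1% on the lower WT array. Within scan sessions its log2 difference was -0.79 and -0.24 at 12 h, and -0.97 and -0.67 at 24 h. At 12 h its direction turned with normexp (0.18), the software's total gene signal (2.58) and the deposited values (1.83, or 2.38 centred). At 24 h it turned with normexp (0.15) and the deposited values (0.13, or 0.032 centred). In all other settings miR-196a stayed lower in KO cells.

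Ranked by mean scaled level in the main setting, miR-10a ran KO 12 h, KO 24 h, WT 24 h, WT 12 h, WT untreated and KO untreated. The arrays of KO 24 h overlapped those of WT 24 h, and those of WT 24 h overlapped those of WT 12 h, so these neighbours are not separated by their spread. Ranked by mean intensity before scaling, miR-10a instead ran WT 12 h (150), WT untreated (133), WT 24 h (118), KO 12 h (117), KO 24 h (94.5) and KO untreated (91.9). For scaled miR-196a the ranking was WT 24 h, WT 12 h, KO 12 h, KO 24 h, WT untreated and KO untreated. Here WT 24 h overlapped WT 12 h, and KO 12 h overlapped KO 24 h. Untreated KO cells were lowest in all 3 rankings.

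The array carries 4 probes for miR-196a and 2 for each of the other members, with 20 spots per miRNA. Between untreated KO and WT cells, each of the 4 miR-196a probes was lower in KO, and 3 of 4 had arrays that did not overlap. These arrays gave the result in view when the members were chosen, so the probes describe that result and do not test it. The probe named A_54_P2465 had scanner intensities of 1.29 and 0.972 on the untreated KO arrays, against 8.57 and 13.1 on the untreated WT arrays. At 12 h it had 13.2 and 12.5 in KO cells, against 38.5 and 33.1 in WT cells. The dimmest, A_54_P2462, had 4.90 and 0.414 on the untreated KO arrays, against 1.80 and 5.32 on the untreated WT arrays, and these overlapped. Between treated and untreated arrays of the same genotype, each of the 4 probes was higher with tunicamycin at both times in both genotypes without overlap, after scaling.

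These signals are faint. The negative control spots of an array had a median intensity of 1.37 to 4.57 and a 95th percentile of 6.86 to 14.6. Of the 20 miR-196a spots, the software placed 15 and 13 well above background on the WT 12 h arrays, 17 and 4 on the WT 24 h arrays and 3 on each untreated WT array. It placed 1 and 0 on the KO 12 h arrays, 2 and 0 on the KO 24 h arrays and 0 on both untreated KO arrays. The miR-196a level in treated KO cells thus rests on a sum of spots that are for the most part not individually above background. For miR-10a all 20 spots were well above background on 10 arrays, 13 on replicate 2 of KO 24 h and 19 on replicate 2 of WT 24 h.

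**Figure D3:**
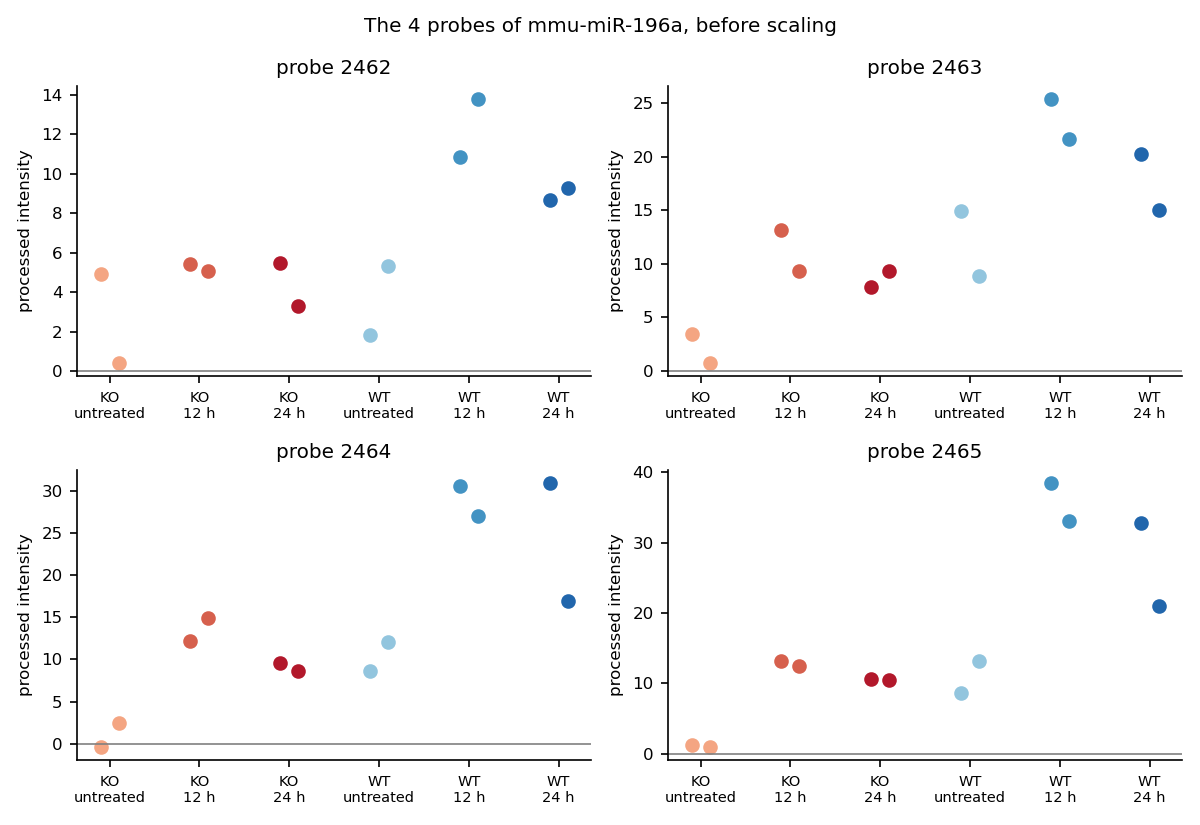
Processed intensity of each of the 4 miR-196a probes (y axis, scanner units before scaling; panels named by the last digits of the probe name) on the 2 arrays of each group (x axis, KO on the left). For probe A_54_P2465 the untreated KO arrays lie at 1.29 and 0.972 and the WT 12 h arrays at 38.5 and 33.1.

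miR-10b was close to background throughout. Its level was 1.93% and 0.776% in untreated KO cells, 4.47% and 5.48% in KO cells at 12 h, and 4.43% and 3.39% in KO cells at 24 h. In WT cells it was 2.46% and 1.99% without treatment, and it lay under the floor on all 4 treated arrays, at 1.16% or less. After scaling, the 4 treated KO arrays lay above the other 8. Before scaling they overlapped them. Replicate 2 had an intensity of 13.48 at KO 12 h and 7.05 at KO 24 h, against 13.98 on replicate 1 of untreated WT. Replicate 1 had 19.96 at KO 12 h and 18.24 at KO 24 h, above the other 8 arrays. In treated KO cells only replicate 1 was detected at each time. The levels of 5.48% and 3.39% in replicate 2 are below the lowest detected signal of those arrays, 5.55% at 12 h and 6.63% at 24 h. No test was made, and a share of miR-10a signal on these probes cannot be told apart from miR-10b.

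miR-196b was undetected on every array. Its levels ran from 0.23% to 5.42%, the highest on replicate 2 of KO 12 h. In order of mean level, 4 of 5 neighbouring pairs of groups overlapped, though means under the floor have no order. After scaling the treated KO arrays lay at 2.64% to 5.42%, the WT arrays at 0.23% to 2.34%, and untreated KO at 2.81% and 0.703%. Before scaling, treated KO and WT arrays overlapped, with 6.98 on replicate 2 of KO 24 h and 8.26 on replicate 1 of WT 12 h. At this signal over background a difference in miR-196b was not detectable.

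The other strands of the members were at background too. miR-10a*, miR-10b* and miR-196a*, the passenger strands on the array, were detected on 0 of 12 arrays, and their summed intensity was at or below 1.28 scanner units on each. A further Hox cluster miRNA gene, Mir615, lies on chromosome 15 within Hoxc5. Its strand miR-615-5p was detected on no array. miR-615-3p was detected on 3 arrays, replicate 1 each of untreated KO, WT 12 h and WT 24 h. Its level was 10.2% on that untreated KO array, while the mean of the 2 untreated KO arrays was 4.70% ± 7.8 (SD). None of these strands entered the test.

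The wider miR-10 family, miR-99a, miR-99b and miR-100, lies outside the Hox clusters and is shown for comparison, with the seed again in capitals.
mmu-miR-99a: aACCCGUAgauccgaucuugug
mmu-miR-99b: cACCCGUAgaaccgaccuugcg
mmu-miR-100: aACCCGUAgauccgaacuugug
These 3 share a seed that differs from the miR-10 seed, and miR-99a differs from miR-100 in 1 of 22 bases (A16U, miR-100 first). All 3 were tested, and only the main setting is given for them. In KO cells 0 of 3 passed at 12 h and 1 rose at 24 h, where 25.6% of all tested miRNAs rose, with median log2 differences of -0.03 and -0.22. In WT cells 2 of 3 fell at 12 h, where 23.9% of all tested miRNAs fell, and 3 of 3 fell at 24 h, where 29.5% did, with medians of -0.55 and -0.84.

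miR-99a had levels of 15.8% ± 0.56 in KO cells and 5.60% ± 0.59 in WT cells without treatment (SD, n = 2 each). In KO cells it averaged 19.0% ± 0.81 at 12 h and 20.7% ± 1.6 at 24 h, and the change at 24 h passed the test (0.39 ± 0.12 log2, limma adjusted p = 0.0396). In WT cells it lay under the floor after treatment, at 1.66% ± 0.08 and 1.26% ± 0.64. Both treated WT groups therefore have no spread on the log2 scale, and the SE shared over the groups, also used in KO cells, can be too small. Without treatment miR-99a was higher in KO cells, the opposite of miR-10a and miR-196a. miR-100 fell in WT cells by 0.55 ± 0.13 at 12 h (adjusted p = 0.0148) and by 0.70 ± 0.13 at 24 h (adjusted p = 0.00389). In KO cells it moved by -0.12 and -0.22 and did not pass. Before scaling, its mean intensity was lower with treatment in both genotypes. It was 134 untreated, 69.5 at 12 h and 60.9 at 24 h in KO cells, against 140, 94.8 and 65.1 in WT cells. miR-99b fell in WT cells at 24 h by 0.84 ± 0.27 (adjusted p = 0.0388).

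Among the other 175 tested miRNAs, those whose log2 level ran most like miR-10a over the 12 arrays were miR-96 (Pearson r = 0.93), miR-7a (0.92), let-7f (0.92), miR-19a (0.91) and miR-106b (0.91). Over the 6 group means r was 0.97, 0.93, 0.92, 0.94 and 0.93 in the same order. miR-96 followed it closely, with mean levels of 1.79%, 12.8% and 10.6% in untreated, 12 h and 24 h KO cells, against 3.92%, 6.80% and 7.21% in the same WT groups.

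Most like miR-196a were miR-20a (r = 0.94), miR-19b (0.93), miR-20b (0.92), miR-92a (0.92) and let-7b (0.92), with 0.97, 0.98, 0.98, 0.95 and 0.92 over group means. miR-20a averaged 12.2%, 65.4% and 52.5% in untreated, 12 h and 24 h KO cells, against 24.9%, 72.0% and 63.0% in the same WT groups. Between miR-10a and miR-196a themselves r was 0.85 over the arrays. These coefficients describe 12 arrays in 6 groups that share slides and scan sessions. Each r with miR-196a also takes in both untreated KO arrays, where miR-196a is set to the floor, below all its other values.

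The outcome for both members depended on how intensity was condensed and scaled. The scanner software's own total gene signal, whose log2 is the deposited table, equalled the sum of the software's probe totals for miR-10a on all 12 arrays within 0.1 of a ratio of 1. For miR-196a it did so on 3 of the 9 arrays that detected it, both WT 12 h arrays and replicate 1 of WT 24 h. On the other 6 it was 5.93 to 12.0 times the sum of probe totals. On the WT 12 h arrays the total gene signal was 36.4 and 31.7, the same as the sums, against 75.9 and 78.2 on the untreated WT arrays, where the probe totals summed to 10.9 and 13.0. Over all miRNAs 36.4% of 1907 detected values differed from their probe sum by more than that tolerance.

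**Figure D4:**
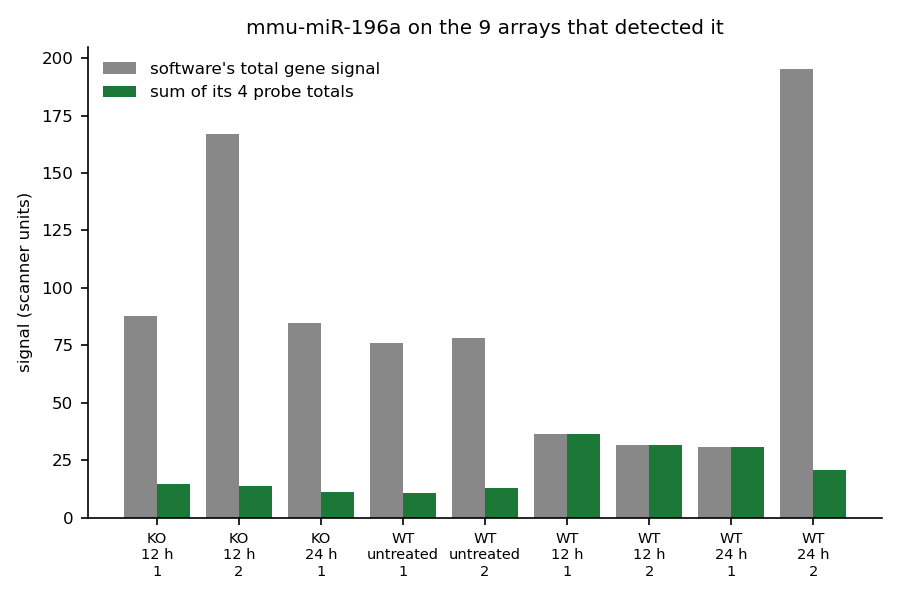
The software's total gene signal for miR-196a (grey) beside the sum of its 4 probe totals (green), in scanner units, on the 9 arrays that detected it, KO on the left with the replicate number under each group. The grey bar is 5.93 to 12.0 times the green one on 6 arrays and equals it on the 3 others.

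With the total gene signal in place of the probe sums, miR-196a in WT cells at 12 h turned to -1.35 on the log2 scale, and on the deposited values to -1.18, so its rise at 12 h in WT cells holds for the probe sums and not for the deposited table. Taken apart, the 4 probes were each higher on both WT 12 h arrays than on both untreated WT arrays. With the brightest probe alone it was 1.88, and with normexp background correction it was 0.36 and did not pass. For miR-10a in KO cells at 12 h, scaling over all miRNAs gave 0.94 (adjusted p = 0.467), quantile normalization 0.68 (adjusted p = 0.064) and the deposited values 0.31 (adjusted p = 0.826). The median of all tested miRNAs moved as well, by 0.25 in KO cells at 12 h in the main setting and by -0.04 with quantile normalization. Relative to the median, miR-10a was 0.95 higher in the first and 0.72 in the second.

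**Figure D5:**
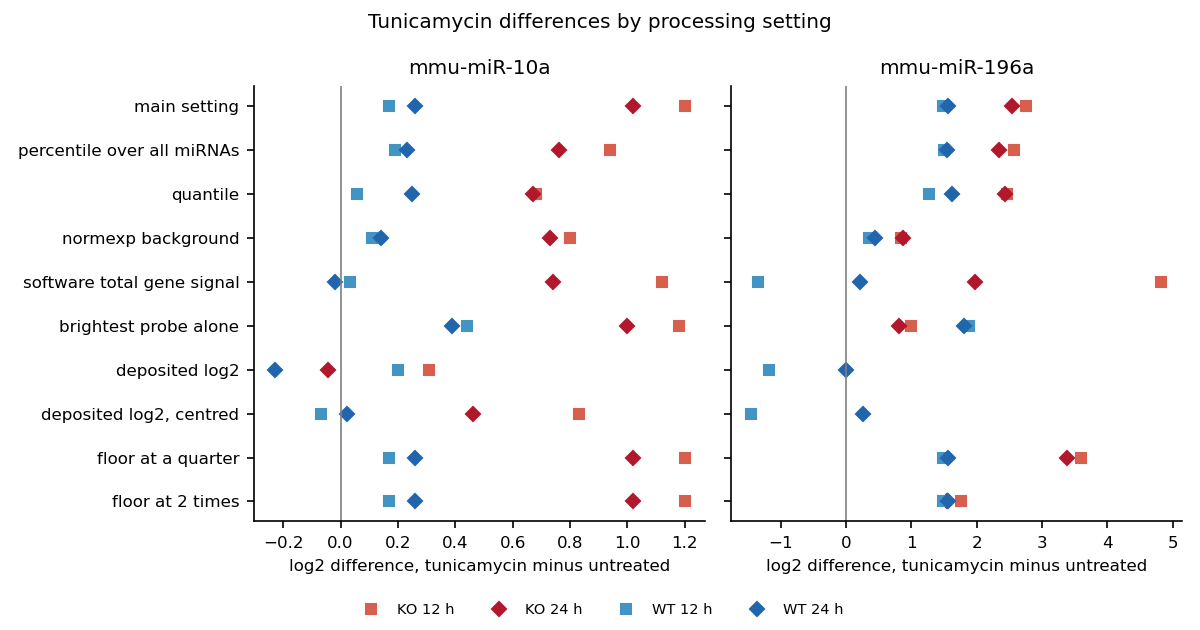
Log2 difference of treated from untreated cells (x axis) for miR-10a and miR-196a under 10 processing settings (rows), with squares for 12 h and diamonds for 24 h, KO in red and WT in blue. Deposited values give no KO point for miR-196a, since it is empty on the untreated KO arrays. For miR-196a the WT 12 h square lies at 1.48 in the main setting and at -1.35 with the software's total gene signal.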

How the data were processed

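The members and the lists of other miRNAs were chosen with earlier results of these data known. Total RNA (100 ng) was labelled with Cy3 and hybridised to 12 single-colour Agilent arrays, per the labels' protocols. The authors deposited scanner tables of spot intensity on a linear scale, background-subtracted by Agilent Feature Extraction 10.7.1.1, per the file headers and the submitters' processing notes. They also deposited a log2 table. Its values match log2 of the total gene signal in the scanner files within 1.18e-06, with no scaling (column medians 5.75 to 6.87) and no entry for undetected miRNAs.

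Each array holds 13000 spots and 715 control spots, which were left out. Spots of a probe were averaged without outlier flags and the probes of a miRNA were summed. Sums were expressed relative to the array's 75th percentile, taken over the 93 miRNAs that all 12 arrays detected, then floored at 0.0191 (log2 -5.71) and put on the log2 scale. The 176 mouse miRNAs that both arrays of some group had detected were fitted with limma 3.58.1 in R 4.3.3 over all 12 arrays (degrees of freedom: 6 residual, 1.65 prior). P-values were adjusted by Benjamini-Hochberg over all 176, with a threshold of 0.05. Called means past it. Where both arrays of a group sit at the floor their spread is 0, and the SE can be too small. On simulated data the fit was checked for recovery of known changes. With 2 arrays per group the number of arrays limits the precision, and since nothing says that the experiments used separate animals, p-values measure the spread between these experiments only.

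Replicate numbers mark the scan session within a slide, per the file headers. Deviations of same-numbered arrays correlated at 0.48 between the untreated groups and at 0.76 to 0.91 among the treated groups, and at -0.38 to -0.05 between slides, so they pair arrays within a slide only. A block for the scan session was fitted for comparisons within a slide. The fit without it treats these deviations as independent.

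Named miRNAs were the members, their other strands, miR-615, the wider miR-10 family, miR-21 and, for miR-10a and miR-196a, the 5 tested miRNAs with the highest Pearson r over the 12 arrays. Sequences and neighbouring genes come from RefSeq tables of GRCm38.p6, in which all 7 miRNAs printed were found by name with the 5p arm added.

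Alternatives were other scalings, background corrections, floors, filters, blocks, samples and the deposited values. The scanner files used here hold no mean column, so normexp ran on median foreground and background signals with an offset of 50, without 8 spots of 1 array whose local background was far above the spot.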

Additional observations from a re-analysis of the deposited data

Results flagged for a closer look

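In the main setting the miR-10a response to tunicamycin differed between the genotypes. This difference contains the gap between the untreated lines, -0.68 on the log2 scale, which was given no test. Since the members were chosen with a genotype result in view, the p-values below are not an independent test of genotype. At 12 h the KO response exceeded the WT response by 1.02 on the log2 scale (limma adjusted p = 0.00797). The level was higher on both treated than on both untreated arrays in each genotype, by 1.20 in KO cells and by 0.17 in WT cells. At 24 h it exceeded it by 0.76 (adjusted p = 0.0259), with 1.02 in KO cells and 0.26 in WT cells. Over its 24 alternatives the 12 h difference ran from 0.10 to 1.11 (adjusted p from 0.00412 to 0.992) and passed under 18. The 24 h difference ran from 0.18 to 0.85 (adjusted p from 0.017 to 0.995) and passed under 11. The epithelial miRNAs that rose on the treated KO arrays moved with these values, and their part was not tested. The part of the lower signal of replicate 2 on treated arrays was examined only by leaving arrays out. Without replicate 2 of KO 12 h or of WT 12 h the 12 h difference was 0.95 or 0.93. Without replicate 2 of KO 24 h or of WT 24 h the 24 h difference was 0.77 or 0.84.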

How the results depend on the processing

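All values here are log2 differences. Those of the tunicamycin comparisons are treated minus untreated, those of time 24 h minus 12 h, those of genotype KO minus WT. A response difference is the KO response minus the WT response. Faint signal limits miR-196a, and 2 arrays per group limit every test.

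With scaling over all miRNAs, miR-10a no longer passed in KO cells (0.94 at 12 h and 0.76 at 24 h), nor did its response differences (0.76 and 0.53). Its genotype differences moved to -0.83 untreated, -0.076 at 12 h and -0.30 at 24 h. miR-196a in WT cells gave 1.5 and 1.54 and did not pass, and its genotype differences moved to -2.01 untreated and -0.93 at 12 h. With quantile normalization miR-10a gave 0.68 and 0.67 in KO cells and 0.62 and 0.42 as response differences, none of which passed. Its genotype differences moved to 0.022 at 12 h and -0.18 at 24 h, and that of miR-196a untreated to -2.05.

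With normexp the miR-10a response differences of 0.69 and 0.59 and the miR-196a rises in WT cells of 0.36 and 0.44 did not pass. The genotype differences of miR-10a moved to -0.38 untreated and 0.21 at 24 h. miR-196a moved to 0.84 and 0.88 in KO cells, to -0.29, 0.18 and 0.15 between genotypes (untreated, 12 h, 24 h), and its KO time difference reversed to 0.039.

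With the software's total gene signal miR-10a at 24 h in KO cells (0.74) and its response differences (1.08 and 0.76) did not pass, and in WT cells the 24 h difference (-0.018) and the time difference (-0.05) reversed. miR-196a in WT cells reversed at 12 h (-1.35) and did not pass at 24 h (0.22). It moved to 4.83 and 1.98 in KO cells, and to -3.60, 2.58 and -1.85 between genotypes.

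The deposited values gave miR-10a 0.31 at 12 h in KO cells and response differences of 0.10 and 0.18, which did not pass, and reversed it at 24 h in KO cells (-0.044), at 24 h in WT cells (-0.23) and for time in WT cells (-0.43). Its genotype differences were -0.49, -0.39 and -0.31. miR-196a in WT cells was -1.18 at 12 h, reversed, and 0.0087 at 24 h, with genotype differences of 1.83 at 12 h and 0.13 at 24 h. Centred, they gave miR-10a 0.83 and 0.46 in KO cells and 0.90 and 0.44 as response differences, which did not pass, -0.069 in WT cells at 12 h, reversed, and 0.16 and -0.30 between genotypes with treatment. miR-196a was then -1.45 in WT cells at 12 h, reversed, and 0.26 at 24 h, with 2.38 and 0.032 between treated genotypes.

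With the brightest probe alone miR-10a in WT cells passed (0.44 and 0.39), its 24 h response difference of 0.61 did not, its WT time difference reversed (-0.047), and its genotype differences with treatment were -0.016 and -0.14. miR-196a moved to 0.99 and 0.81 in KO cells and to -0.18 untreated and -1.08 at 12 h between genotypes, and its WT time difference reversed (-0.083). A floor at 2 times its height gave miR-196a 1.76 and 1.54 in KO cells and -0.79 between untreated genotypes, and a floor lowered to 0.25 of its height gave 3.60, 3.38 and -2.63. Without the detection filter, which raises the number of miRNAs tested, the 24 h response difference of miR-10a (0.76) and the WT rises of miR-196a (1.48 and 1.57) did not pass.

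Leaving out 1 array at a time gave ranges of 0.67 to 0.85 for the 24 h response difference of miR-10a, which did not pass in 5 of these fits. The miR-10a time difference in WT cells ran from -0.0083 to 0.18. For miR-196a the ranges were 1.34 to 1.63 at 12 h and 1.27 to 1.87 at 24 h in WT cells, 2.36 to 3.15 at 12 h in KO cells, -0.67 to 0.24 for time in KO cells, -0.22 to 0.39 for time in WT cells and -1.93 to -1.65 between untreated genotypes. The replicate number as a block, which marks no shared session across slides, kept every difference and changed no call of a member: miR-10a at 12 h in KO cells stayed at 1.20 (adjusted p = 0.000333). The block for the scan session changed none either.

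Counts of called miRNAs ran from 0, on the deposited values in each comparison (limma, 1 to 32 at an unadjusted p under 0.05), to 58 and 73 in KO cells at 12 h and 24 h (45 and 54 in the main setting). In WT cells they ran to 89 and 96 (67 and 76), and for the response differences to 61 and 60 (43 and 36). Between 24 h and 12 h they ran to 5 in KO cells and 4 in WT cells (1 and 2).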
